A study of Mus musculus with 3 samples.

Results

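The 37 genes described here, of 32285 in the deposited matrices, belong to sterol and fatty acid synthesis and to the transport of cholesterol. They were followed in cells from the hind paws of mice given serum of arthritic K/BxN animals by injection into the peritoneum, which brings on joint inflammation. The genes were chosen by name and function with earlier results on these libraries in view, so the differences between days are descriptions of a chosen set. Of the 37, 18 encode enzymes of cholesterol synthesis, 7 are regulators of the SREBP and LXR pathways, 6 take part in fatty acid synthesis, and 6 move or store cholesterol.

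The series holds 3 single-cell RNA libraries, each the only one of its group. CD45- stromal cells were sorted from paws at day 0 and at day 5 of serum transfer, and the library of day 9 holds myeloid cells gated as CD45+CD11b+Ly6G-. All 3 groups came from paws freed of skin, muscle and tendon and digested with collagenase and a DNase. Strain, sex, age and the number of mice in each library were not given in the sources used here. With 1 library in each group no test over replicates was possible, day and library cannot be told apart, and every interval below is a 95% interval that covers counting error only.

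Cells make cholesterol from acetyl-CoA through the mevalonate pathway, and fatty acids from the same precursor. When membrane sterol is low, SCAP carries the SREBP transcription factors to the Golgi, where cleavage releases the part that activates synthesis genes; when sterol is plentiful, the INSIG proteins hold SCAP and SREBP in the endoplasmic reticulum. Oxysterols activate the nuclear receptors LXRα (Nr1h3) and LXRβ (Nr1h2), whose targets include the cholesterol exporters ABCA1 and ABCG1, and macrophages are known for high use of this efflux arm.

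The sequences upstream of 4 genes that were lower at day 5 and of Abca1, which was higher, are shown because these members differed in opposite directions between the same 2 libraries. Each is the 250 bases before the start of the gene on the GRCm38.p6 assembly, from RefSeq, written 5′ to 3′ on the gene's own strand. Capitals mark a match, on either strand, to 1 of 3 motifs. The sterol response element, bound by SREBP, was searched as TCACNCCAC. The NF-Y box was searched as CCAAT and, where it lies on the other strand, is printed as it reads on the gene's strand. The E-box was searched as CACGTG. Hmgcs1 lies on the plus strand at chr13:119690101-119690350, Idi1 on the plus strand at chr13:8885356-8885605, Msmo1 on the minus strand at chr8:64733579-64733828, Insig1 on the plus strand at chr5:28071162-28071411 and Abca1 on the minus strand at chr4:53159896-53160145.
Hmgcs1: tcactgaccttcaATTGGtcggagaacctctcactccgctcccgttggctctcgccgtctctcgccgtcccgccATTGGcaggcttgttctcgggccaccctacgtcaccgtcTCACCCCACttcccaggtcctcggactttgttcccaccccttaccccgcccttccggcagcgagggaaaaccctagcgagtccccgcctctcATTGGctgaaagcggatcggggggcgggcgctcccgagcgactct
Idi1: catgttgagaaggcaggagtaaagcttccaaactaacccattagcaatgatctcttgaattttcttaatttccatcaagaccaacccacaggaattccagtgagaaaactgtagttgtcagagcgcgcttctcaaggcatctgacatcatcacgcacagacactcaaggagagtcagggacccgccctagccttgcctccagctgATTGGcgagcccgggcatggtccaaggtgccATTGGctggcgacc
Msmo1: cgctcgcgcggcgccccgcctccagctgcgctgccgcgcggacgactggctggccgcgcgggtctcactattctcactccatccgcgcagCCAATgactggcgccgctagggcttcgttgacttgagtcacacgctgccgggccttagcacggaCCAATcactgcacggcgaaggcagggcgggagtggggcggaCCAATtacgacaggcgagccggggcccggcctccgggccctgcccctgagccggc
Insig1: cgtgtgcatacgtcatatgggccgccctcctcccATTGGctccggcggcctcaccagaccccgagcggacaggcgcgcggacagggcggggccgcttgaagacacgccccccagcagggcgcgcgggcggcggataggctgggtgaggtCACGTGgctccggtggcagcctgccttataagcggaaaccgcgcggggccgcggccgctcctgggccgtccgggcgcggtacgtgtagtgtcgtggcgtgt
Abca1: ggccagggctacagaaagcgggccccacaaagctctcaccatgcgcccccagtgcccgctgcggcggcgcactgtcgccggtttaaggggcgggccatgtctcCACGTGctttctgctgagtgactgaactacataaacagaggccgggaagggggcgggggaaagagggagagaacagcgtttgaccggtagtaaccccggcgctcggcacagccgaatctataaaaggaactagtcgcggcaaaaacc

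Of the 37 members, 29 had a promoter entry; Fdps, Fdft1, Sqle, Scd1, Scd2, Abcg1, Npc1 and Stard4 did not. The sterol response element was found in 1 of the 29, Hmgcs1, where it begins 137 bases before the start, and in 1.05% of the 32851 windows of the same length in the table. CCAAT was found in 33.8% of all windows. It was found in 21 of the 29 members, among them 14 of the 15 sterol synthesis members with an entry. CACGTG was found in 6 members (Abca1, Dhcr7, Hsd17b7, Insig1, Sc5d and Scap) and in 6.02% of windows. The 29 members had 38 windows, and a member was counted if any of its windows matched. The percentages are of single windows. Members with more than 1 window can thus raise the share of members, which is not directly comparable with the share of windows. A match is a description of the letters in these windows, and no match says nothing about binding elsewhere.

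The deposited matrices held 77842586 UMIs at stromal day 0, 122224428 at stromal day 5 and 69430907 at myeloid day 9, a UMI being a molecule counted once. The cells analysed after filtering numbered 6912, 10108 and 5574 in that order, and their median depth was 9674, 9111 and 6394.5 UMIs. The libraries shared 22 to 35 cell barcodes pairwise, of which 9 to 24 were among the kept cells in both. In the stromal libraries 5385 cells at day 0 and 8338 at day 5 were fibroblast-like, 933 and 1149 tenocyte-like, and 470 and 514 osteoblast-like. The classes were named from marker lists, and all 7 fibroblast, 7 tenocyte and 8 osteoblast markers had counts in their own class on both days. This does not separate the classes, since all 7 tenocyte and 8 osteoblast markers also had counts in fibroblasts on both days. Clusters 6 and 9 of the fibroblast class had no fibroblast marker but 1 gene of the monocyte list, Hp, among their 10 leading genes; without these clusters 6 of the 7 members at least 1.5-fold apart between the days stayed so, Stard4 did not (log2 ratio -0.55), and 2 fatty acid genes in place of 1 were past it. Values are also given by numbered sub-cluster. A cluster led by Edil3 and H19 stayed out of the osteoblast class by a threshold set after the data were seen; it held 7.18% of kept cells at day 0 and 6.40% at day 5. Tenocytes came mostly from cluster 0 at day 0 (696 of 933 cells) and mostly from cluster 13 at day 5 (613 of 1149). Cluster 13 had 5 of the tenocyte markers among its 10 leading genes and cluster 0, led by Angptl7 and Clu, had 0.

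In fibroblasts at day 5 the sterol sensor gene Insig1 and a few sterol synthesis genes were lower. Of the genes on the LXR side, Abca1 and Nr1h3 were higher, while Abcg1 and Nr1h2 stayed within 1.5-fold. A member was measured if it had at least 50 counts over both libraries of a class, and a ratio of at least 1.5-fold was used as a size to report, not as a test. Of the 37 members, all measured, 2 were at least 1.5-fold higher and 5 at least 1.5-fold lower, while among all 14090 genes measured in fibroblasts 8.15% were that much higher and 6.17% lower. By group, 0 of the 18 sterol synthesis genes were higher and 2 lower, with a median log2 ratio of -0.18. The count of 2 was 5 after cells were thinned to 2000 UMIs (1 higher and 4 lower), 5 without sub-cluster 2, led by Saa3, and 6 with 10 sub-clusters weighted equally. The 7 regulators split 1 higher and 1 lower (median -0.28), the 6 fatty acid genes 0 and 1 (median -0.27), and the 6 efflux, transport and storage genes 1 and 1 (median 0.14). The median of all genes was 0.01.

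**Figure D1:**
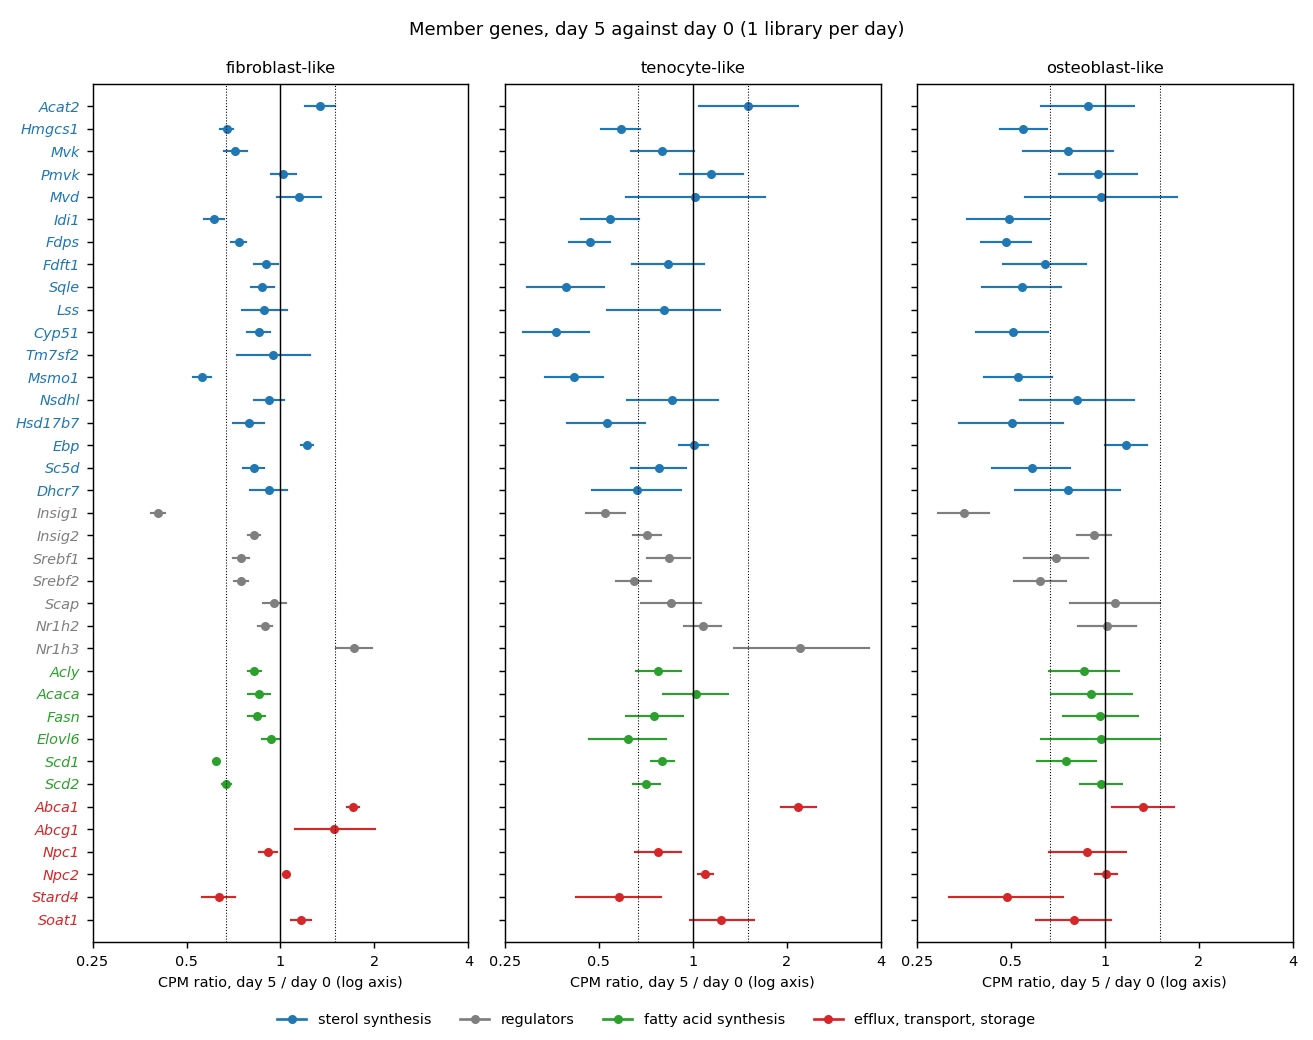
Ratio of day 5 to day 0 in CPM (log axis) for each of the 37 members in fibroblasts, tenocytes and osteoblasts, with bars for the 95% counting interval and dotted lines at 1.5-fold in each direction; members with fewer than 50 counts in a class are not drawn. Insig1 lies left of the lower dotted line in all 3 classes, and Abca1 lies right of the upper line in fibroblasts and tenocytes.

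Insig1, whose product retains SCAP and SREBP in the endoplasmic reticulum and which is itself an SREBP target, had 3553 counts at day 0 and 2283 at day 5 in fibroblasts. Per 1000000 UMIs of the class (CPM) this was 64.1 at day 0 and 25.9 at day 5, which is 2.47-fold lower (2.35 to 2.61). Its relative Insig2 stood at 66.2 and 54.6 CPM, a ratio of 0.824 (0.790 to 0.861), within 1.5-fold. Srebf1 and Srebf2, which encode the SREBP precursors, both had a ratio of 0.748, and Scap, the escort protein gene, 0.956 (0.881 to 1.04). All 5 genes of this SREBP control unit thus had ratios under 1, Insig1 alone of them past 1.5-fold.

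Among the sterol synthesis genes in fibroblasts, those past 1.5-fold were Msmo1 and Idi1. Msmo1, the sterol C4-methyl oxidase of the late pathway, was at 33.0 CPM on day 0 and 18.5 on day 5, or 1.78-fold lower (1.67 to 1.91). Idi1, which interconverts the isoprene units, was at 26.4 and 16.1 CPM, or 1.64-fold lower (1.52 to 1.76). Hmgcs1, which makes HMG-CoA at the head of the pathway, was at 63.2 and 42.5 CPM, just inside 1.5-fold with a ratio of 0.673. Between these and 1 lay 11 more, from Mvk (0.717) and Fdps (0.734) to Tm7sf2 (0.947). The 4 enzymes with ratios above 1 were Acat2 at 1.34 (1.2 to 1.5), Ebp at 1.22 (1.16 to 1.27), Mvd at 1.15 (0.976 to 1.35) and Pmvk at 1.02 (0.931 to 1.12).

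On the LXR side in fibroblasts, Abca1, the exporter of cholesterol to lipid-poor apolipoprotein, had 2907 counts at day 0 and 7885 at day 5. This was 52.5 CPM at day 0 and 89.5 at day 5, or 1.71-fold higher (1.63 to 1.78). Nr1h3, the gene of LXRα, was at 5.65 and 9.73 CPM, or 1.72-fold higher (1.51 to 1.97), while Nr1h2, the gene of LXRβ, had a ratio of 0.892 (0.845 to 0.942). Abcg1, the exporter to high-density lipoprotein, was low in fibroblasts, with 68 and 161 counts, and its ratio of 1.49 (1.12 to 2.01) fell just short of 1.5-fold. Stard4, a carrier of sterol within the cell, was at 9.77 and 6.19 CPM, or 1.58-fold lower (1.40 to 1.78). Npc1 and Npc2, which bring cholesterol out of the lysosome, and Soat1, which esterifies it for storage, had ratios of 0.914, 1.04 and 1.16.

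All 6 fatty acid genes had ratios under 1 in fibroblasts, as did 6887 of all 14090 genes measured, and 1 of the 6 was past 1.5-fold. Scd1, a stearoyl-CoA desaturase, was at 190 CPM on day 0 and 118 on day 5, or 1.61-fold lower (1.56 to 1.65), and its paralog Scd2 was at 139 and 93.4 CPM with a ratio of 0.671 (0.651 to 0.693). Acly, which makes cytosolic acetyl-CoA, had a ratio of 0.825, the carboxylase gene Acaca 0.852, the synthase gene Fasn 0.839 and the elongase gene Elovl6 0.933. The summed level of the 6 genes was 453.8 CPM at day 0 and 318.1 at day 5, and most of this difference lay in Scd1 and Scd2. Scd1 is also a gene of fat and sebaceous cells. The 6 adipocyte markers summed to 1.3 CPM in fibroblasts at day 0 and 0.704 at day 5, with Lep and Adrb3 at 0, and the 6 keratinocyte and sebocyte markers to 34.5 and 23.8, with Krt5, Krt14 and Krt17 at 0; their part in the Scd1 ratio was not tested.

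Tenocytes, the cells of tendon, also had lower sterol synthesis genes at day 5; the difference from fibroblasts in these changes was not tested. Of 35 members measured, 2 were at least 1.5-fold higher and 12 lower, against 7.75% and 7.14% of 10882 genes. Of 17 sterol synthesis genes measured, 8 were lower and 0 higher, with a median log2 ratio of -0.36 beside -0.01 for all genes, and their summed level was 388.5 CPM at day 0 and 263.9 at day 5. Cyp51, the lanosterol demethylase gene, had 245 and 96 counts, which is 25.7 and 9.40 CPM, or 2.74-fold lower (2.15 to 3.5). Sqle, the squalene epoxidase gene, was at 18.2 and 7.15 CPM, or 2.54-fold lower (1.92 to 3.39). Msmo1 was 2.40-fold lower (1.94 to 2.97) and Fdps, which makes farnesyl diphosphate, was 2.14-fold lower (1.84 to 2.49). Hsd17b7, Idi1, Hmgcs1 and Dhcr7, the last step of the pathway, were 1.89, 1.84, 1.70 and 1.51-fold lower. The other 9 ran from Sc5d at 0.779 to Acat2 at 1.5 (1.04 to 2.17), and Tm7sf2, with 17 and 12 counts, was not measured. Under the looser cell filter, where the class held 458 and 691 cells, 5 of these genes were past 1.5-fold in place of 8. The class was then only the cluster led by Coch and Fmod, and a cluster led by Cytl1, Clu and Angptl7 carried no name. That count therefore comes from a differently made class as well as a different filter.

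The tenocyte regulators and exporters split as in the fibroblast values, which come from the same 2 libraries. Insig1 was at 55.2 CPM on day 0 and 29.0 on day 5, or 1.90-fold lower (1.65 to 2.20), and Srebf2 was at 58.6 and 37.9 CPM, or 1.55-fold lower (1.36 to 1.76). Abca1 was at 34.9 and 75.9 CPM, or 2.18-fold higher (1.91 to 2.48). Nr1h3 rested on 25 and 59 counts and was 2.20-fold higher (1.36 to 3.67), and Abcg1 was not measured, with 11 and 18 counts. Elovl6 was 1.61-fold lower (1.22 to 2.14) and Stard4 1.72-fold lower (1.27 to 2.36), while Scd1 and Scd2 had ratios of 0.8 and 0.710, within 1.5-fold. Since the 2 tenocyte clusters changed in share, each was also compared with itself. Insig1 had ratios of 0.524 in cluster 0 and 0.489 in cluster 13, Abca1 of 2.12 and 1.99, and Cyp51 of 0.332 and 0.340.

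Osteoblasts, the bone-forming cells, had the highest summed level of sterol synthesis genes at day 0 among the 3 classes, at 552.7 CPM, and stood at 368.6 CPM at day 5. At day 0, 10 of the 18 genes were at least 1.5-fold higher in osteoblasts than in fibroblasts and 0 lower, with a median log2 ratio of 0.66, where 17.5% of all genes were that much higher and 18.5% lower. At day 5, 2 of the 18 were higher and 0 lower, beside 17.5% and 18% of all genes. Between days, 0 of the 33 members measured in osteoblasts were at least 1.5-fold higher and 12 were lower, against 5.59% and 3.61% of 9814 genes. The sterol synthesis genes made up 9 of the 12, out of 16 measured, with a median log2 ratio of -0.71 beside 0.03 for all genes.

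In osteoblasts Insig1 had 413 counts at day 0 and 161 at day 5, which is 97.8 and 34.5 CPM, or 2.83-fold lower (2.36 to 3.42). Fdps was at 79.1 and 38.2 CPM, or 2.07-fold lower (1.72 to 2.50), and Hmgcs1 at 84.6 and 46.3 CPM, or 1.82-fold lower (1.54 to 2.17). Idi1, Hsd17b7, Cyp51, Msmo1, Sqle, Sc5d and Fdft1 were 2.03, 1.99, 1.98, 1.89, 1.84, 1.72 and 1.55-fold lower. Stard4 was 2.06-fold lower (1.36 to 3.16) and Srebf2 was 1.61-fold lower (1.33 to 1.96). The only sterol synthesis gene of the 16 with a ratio above 1 was Ebp, at 1.17 (1.00 to 1.36). The fatty acid genes lay between 0.752 for Scd1 and 0.973 for Scd2 (median log2 ratio -0.09), so none of the 6 was past 1.5-fold. Abca1 was at 31.0 and 41.2 CPM, a ratio of 1.33 (1.06 to 1.67), Nr1h3 had 8 and 13 counts, and Abcg1 had 1 and 0. Lss, Tm7sf2, Nr1h3 and Abcg1 were the 4 members not measured in this class. With cells thinned to 2000 UMIs, 3 sterol synthesis genes in place of 9 were past 1.5-fold, and Fdft1 had a log2 ratio of 0.12.

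Markers of other cells differed between the days in several lists. In fibroblasts the tenocyte list summed to 231.3 CPM at day 0 and 366.0 at day 5, and the inflammatory fibroblast list to 134.3 and 1640. In tenocytes the chondrocyte list summed to 103.2 and 36.8 CPM, the monocyte list to 231.2 and 91.8, the macrophage list to 268.5 and 495.6 and the progenitor fibroblast list to 2405 and 1531. In osteoblasts the inflammatory fibroblast list summed to 20.1 and 251.9 CPM and the osteoclast list to 472.1 and 299.5. The Arg1 macrophage list, which holds Spp1, a leading gene of the osteoblast cluster, summed to 22160 and 11340 CPM there. Osteoblasts were not compared within smaller clusters. The leukocyte list summed to 3.86 and 2.36 CPM in fibroblasts on day 0 and day 5, to 1.05 and 1.18 in tenocytes and to 3.55 and 4.51 in osteoblasts, with Ptprc, which encodes CD45, at 0 in osteoblasts on both days. The neutrophil list summed to at most 2.37 CPM in any of these. Erythroid genes, of which haemoglobin genes lead, went from 10.8 to 160.3 CPM in fibroblasts and from 11 to 1067 CPM in tenocytes, and from 10.7 to 5.36 in osteoblasts. The cycling list was at 7.15 and 27.9 CPM in fibroblasts, 1.15 and 1.37 in tenocytes and 3.79 and 19.3 in osteoblasts. The part of any of these lists in a ratio was not tested. After each cell was thinned to 2000 UMIs, the mean number of UMIs of the 18 sterol synthesis genes per cell was 0.726 at day 0 and 0.579 at day 5 in fibroblasts, 0.786 and 0.546 in tenocytes, and 0.964 and 0.646 in osteoblasts.

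Genes of the same pathways outside the 37 were compared from lists of 6 kinds, naming the 2 with the largest ratio each way where they passed 1.5-fold. Of all genes measured, 8.15%, 7.75% and 5.59% were at least 1.5-fold higher in fibroblasts, tenocytes and osteoblasts, and 6.17%, 7.14% and 3.61% lower. The isoprenoid branch, which uses the same precursors for ubiquinone, dolichol and prenylation, had 0 of 9, 0 of 9 and 0 of 8 genes higher, and 1 lower in all: Pdss1 in tenocytes, at 0.516 on 38 and 21 counts. SREBP processing and degradation genes held 1 past 1.5-fold, Erlin1 in fibroblasts at 1.93 (1.72 to 2.17).

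Other LXR targets and receptor partners had 1 of 10 higher in fibroblasts (Apoc1, an apolipoprotein gene, 2.45), 2 of 9 in tenocytes (Lpl, lipoprotein lipase, 2.24, and Apoe, 2.05) and 1 of 9 in osteoblasts (Lpl, 3.36, from 31 and 115 counts), with 0 lower in each. Beside the 8.15%, 7.75% and 5.59% of all genes that were higher in these classes, 1 gene in lists this short is not set apart. In fibroblasts Lpl had a ratio of 1.41. Of the oxysterol genes in fibroblasts, 2 of 5 were higher, Ch25h, which makes 25-hydroxycholesterol, at 3.26 (2.35 to 4.63) on 43 and 223 counts, and Cyp7b1, which hydroxylates oxysterols further, at 2.36 (2.09 to 2.67). Hsd3b7, of the bile acid route, was lower in tenocytes at 0.585. Other fatty acid genes past 1.5-fold were Elovl5 in fibroblasts (0.666), Fads1 in osteoblasts (0.626), and Acacb and Lpin1 in tenocytes (2.25 and 1.90), where 3 of 17 were higher. Of the lysosomal and lipid droplet genes, Soat2 was lower in fibroblasts (0.530, on 38 and 32 counts) and Stard5 higher in tenocytes (2.11).

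Clustering the fibroblasts alone, without the member genes, gave 13 sub-clusters, of which 10 had at least 50 cells in both libraries. Sub-clusters 6, 8 and 12 held 2, 1 and 3 osteoblast or chondrocyte markers and 0 fibroblast markers among their 10 leading genes and carry no name. Sub-clusters 0 and 4 likewise held 0 fibroblast markers and 1 of another list, Tnmd of tenocytes and Hp of monocytes, and are given by number. Without all 5 of these, 9 members in place of 7 and 3 sterol synthesis genes in place of 2 were past 1.5-fold. Across the 10, from 3.93% to 14.2% of all genes measured were at least 1.5-fold lower at day 5 and from 5.44% to 31.3% higher. Insig1 was at least 1.5-fold lower at day 5 in 10 of the 10, with ratios from 0.257 in sub-cluster 10 to 0.538 in sub-cluster 6. Abca1 had a ratio above 1 in 10 of the 10 and was past 1.5-fold in 9, from 1.26 in sub-cluster 7, led by C2 and F3, to 2.82 in sub-cluster 4, led by Penk and Emx2. Msmo1 was lower than day 0 in all 10 and past 1.5-fold in 8, and Hmgcs1 and Idi1 were lower in 10 and past 1.5-fold in 7. Cyp51 and Sqle were past 1.5-fold lower in 6 of 9 measured, and Stard4 in 6 of 7. Ebp had a ratio of at least 1.00 in all 10, and Acat2 above 1 in all 8 measured. Scd1 and Scd2 had ratios under 1 in all 10 and past 1.5-fold in 3 each. Nr1h3 was measured in 6 sub-clusters, above 1 in 6 and past 1.5-fold in 4.

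The summed sterol synthesis level was lower at day 5 in 9 of the 10 sub-clusters. It was 961.5 CPM at day 0 and 464.2 at day 5 in sub-cluster 10, led by Hmcn2 and Smoc2, and 670.2 and 409.0 in sub-cluster 8. In sub-cluster 9, with lining-layer markers such as Clic5 and Prg4, it was 409.4 and 252.1, and in sub-cluster 1, led by Krtdap and including Pi16 and Dpp4, it was 441.9 and 314.4. The smallest differences among these 9 were in sub-cluster 6, at 285.5 and 275.4 CPM, and sub-cluster 0, at 301.3 and 280.5. In sub-cluster 7 it was higher at day 5, 261.9 and 324.0 CPM. The sub-clusters share the same 2 libraries, so they do not replicate the difference between days.

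**Figure D2:**
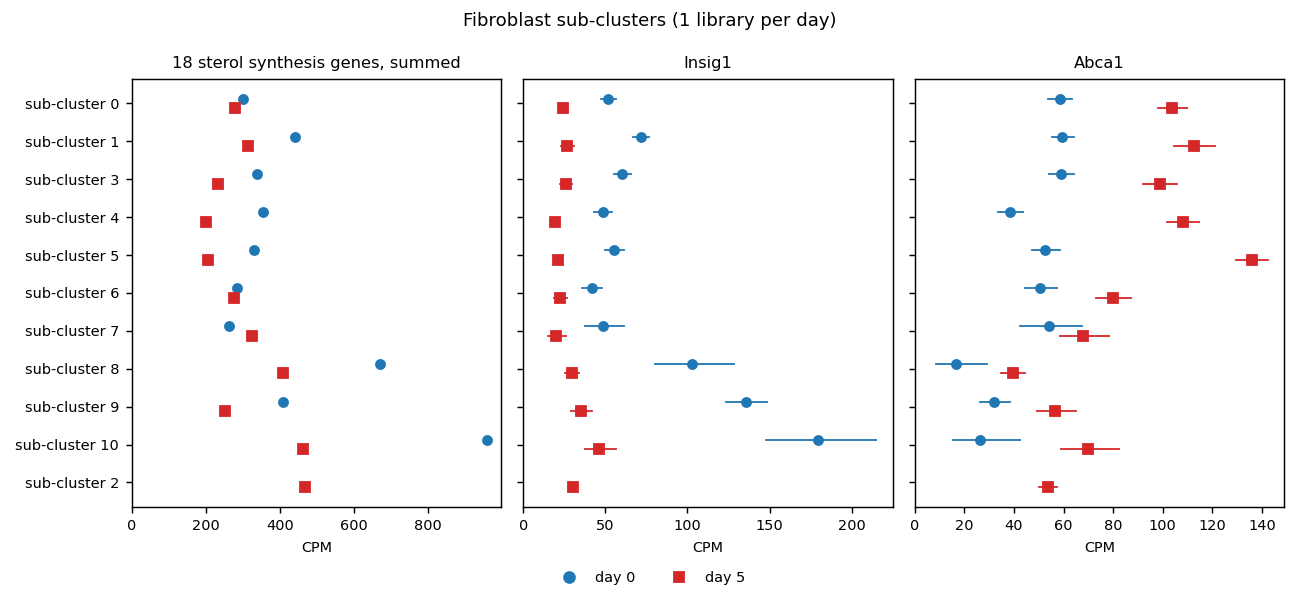
Summed CPM of the 18 sterol synthesis genes, and CPM of Insig1 and Abca1, in each fibroblast sub-cluster at day 0 (circles) and day 5 (squares); bars on the single genes are 95% Poisson intervals, and sub-cluster 2 is drawn at day 5 only because it held 6 cells at day 0. Insig1 is lower and Abca1 higher at day 5 in each of the 10 sub-clusters drawn for both days.

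Sub-cluster 2, led by Saa3, Lcn2 and Ptx3, genes of the acute-phase response, held 1003 cells at day 5 and 6 at day 0. It had higher sterol synthesis and lower exporter levels than the pool of the other 7335 fibroblasts of day 5. Of 18 sterol synthesis genes 9 were at least 1.5-fold higher in it and 0 lower, with a median log2 ratio of 0.71; of all 13426 genes measured 8.57% were higher and 29.2% lower, with a median of -0.22. Their summed level was 469.0 CPM in sub-cluster 2 and 271.0 in the others. This level was not particular to sub-cluster 2, since that of sub-cluster 10 at day 5, given above, was close to it. Sqle was at 34.0 CPM there and 11.1 in the others, 3.07-fold higher (2.75 to 3.44), Fdps 2.55-fold, Cyp51 2.44-fold, Mvd 2.41-fold, Hmgcs1 2.18-fold and Idi1 2.14-fold higher. Msmo1, Fdft1 and Hsd17b7 were 1.96, 1.94 and 1.84-fold higher, and so was the transporter Stard4, at 1.70. Abca1 was at 53.6 CPM against 97.1, 1.81-fold lower (1.68 to 1.95), Abcg1 had 9 counts against 152, 3.57-fold lower (1.83 to 7.96), and Scd2 was 1.63-fold lower (1.52 to 1.75). Of the regulators 0 of 7 were past 1.5-fold in either direction. The cells of sub-cluster 2 had a median of 13979 UMIs against 9034 in the other fibroblasts, and the part of depth was not tested.

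With sub-cluster 2 left out, 3 members were at least 1.5-fold higher and 8 lower at day 5 in fibroblasts, beside 8.19% and 5.23% of 13975 genes, and the sterol synthesis genes past 1.5-fold were 5 in place of 2. Hmgcs1 was then at 63.2 CPM on day 0 and 35.2 on day 5, 1.79-fold lower (1.70 to 1.89), Fdps was 1.73-fold lower (1.62 to 1.85) and Sqle 1.56-fold lower (1.42 to 1.71). Insig1 was 2.56-fold lower (2.42 to 2.71), Abca1 1.85-fold higher (1.77 to 1.93) and Abcg1 1.70-fold higher (1.27 to 2.30). The summed sterol synthesis level was 365.4 CPM at day 0 and 271.0 at day 5 without these cells, and 365.2 and 305.5 with them.

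**Figure D3:**
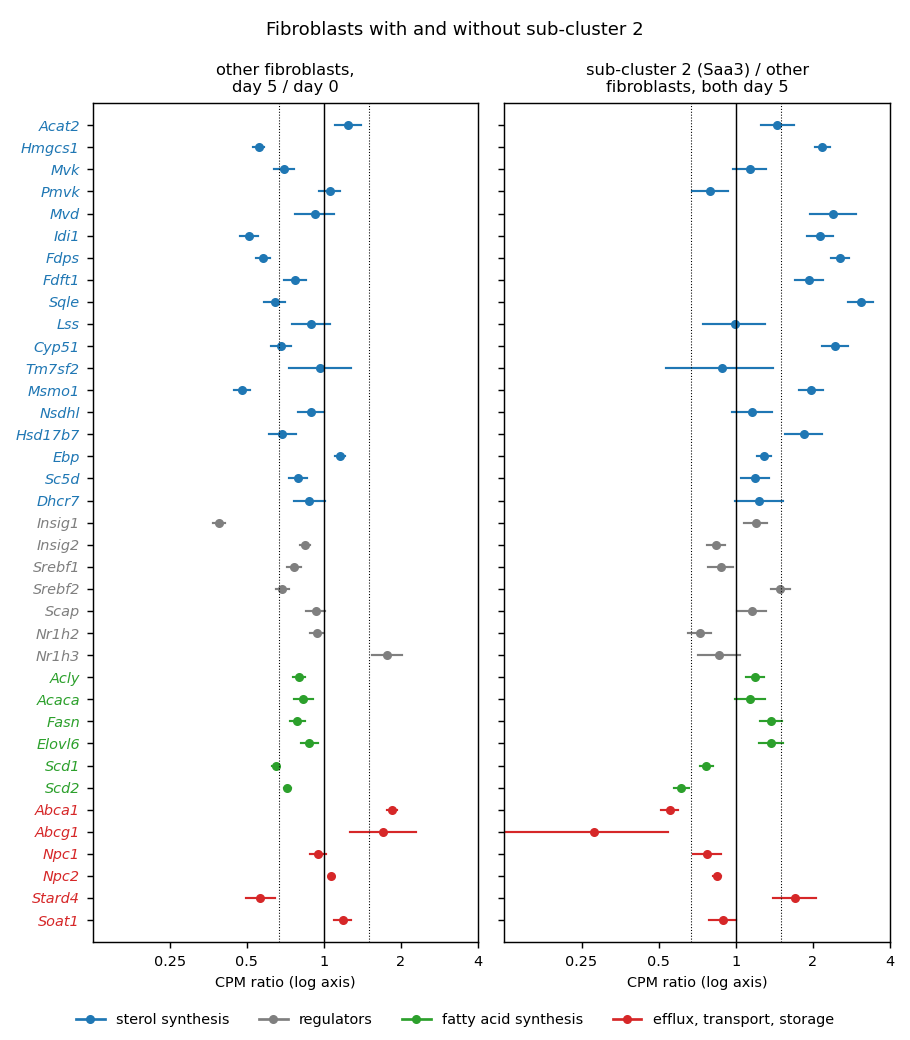
For each member, the ratio of day 5 to day 0 in fibroblasts other than sub-cluster 2, and the ratio of sub-cluster 2 to those other fibroblasts at day 5, both in CPM on a log axis with 95% counting intervals. Sqle, Fdps, Hmgcs1 and Idi1 lie below 1 in the first comparison and above 1 in the second, and Abca1 and Abcg1 the other way round. The other fibroblasts of day 5 enter both ratios on opposite sides, so the 2 comparisons are not independent and opposite directions are partly built in.

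In the myeloid library of day 9 the exporter genes Abca1 and Abcg1 were higher in macrophages than in monocytes and conventional dendritic cells. The sterol synthesis genes past 1.5-fold went both ways against monocytes and were lower against dendritic cells. Macrophages (2478 cells in 6 clusters named from their markers) were set against 529 Ly6c2 and Plac8 monocytes and 511 conventional dendritic cells of the same library. The dendritic name is weak. Clusters 3 and 12 of that class each held 1 dendritic marker, Cd209a, among their 10 leading genes. Each also held 1 gene of another list, Kit of mast cells in cluster 3 and Retnla of RELM-alpha macrophages in cluster 12. Of 34 members measured against monocytes, 9 were at least 1.5-fold higher in macrophages and 6 lower, where 26.2% and 11.3% of 9977 genes were. Of 35 measured against dendritic cells, 7 were higher and 10 lower, where 22.4% and 15% of 10166 genes were. In both comparisons the higher members were thus near the share of all genes. Of the 6 efflux, transport and storage genes, 3 were higher than in monocytes and 5 higher than in dendritic cells, with 0 lower in each. Their summed level was 2169 CPM in macrophages, 1532 in monocytes and 921.3 in dendritic cells, most of it Npc2.

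Abca1 was at 442 CPM in macrophages, 97.9 in monocytes and 34.4 in dendritic cells, which is 4.52-fold (4.04 to 5.07) and 12.8-fold (10.9 to 15.3) higher. Nr1h3 was at 70.7 CPM against 8.82 and 9.21, 8.02-fold (5.55 to 12) and 7.68-fold (5.56 to 10.9) higher. Abcg1 was at 122 CPM against 43.8 and 78.3, 2.79-fold and 1.56-fold higher, and Npc1 at 117 against 54.1 and 52.4, 2.16-fold and 2.23-fold higher. Npc2 was 2.07-fold and Soat1 1.53-fold higher than in dendritic cells, but neither was past 1.5-fold against monocytes (ratios 1.16 and 0.869). Nr1h2, the other LXR gene, had ratios of 0.926 and 0.937, so the 2 receptor genes did not share this pattern.

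The sterol synthesis genes summed to 302.2 CPM in macrophages, 365.1 in monocytes and 478.8 in dendritic cells. Against dendritic cells 5 of 16 were lower and 0 higher: Pmvk, the phosphomevalonate kinase gene (35.1 against 120 CPM, 3.41-fold lower, 3.02 to 3.86), Cyp51 (2.40-fold), Fdps (2.20-fold), Idi1 (2.15-fold) and Sqle (1.76-fold). Against monocytes Fdps, Cyp51 and Idi1 were 2.12, 1.79 and 1.57-fold lower, and Hsd17b7, Dhcr7 and Mvk were 2.07, 1.87 and 1.59-fold higher, the first and last of these 3 on 7 and 15 monocyte counts with intervals that include 1. Srebf2 was at 47.6 CPM in macrophages, 79.6 in monocytes and 128 in dendritic cells, 1.67-fold (1.45 to 1.93) and 2.68-fold (2.39 to 3.00) lower. Insig1 was 1.65-fold lower than in monocytes and had a ratio of 1.06 to dendritic cells, Insig2 was 2.56-fold higher than in dendritic cells, and Scap was 2.01-fold higher than in monocytes but 1.69-fold lower than in dendritic cells.

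Of the 6 fatty acid genes, macrophages were at least 1.5-fold lower than dendritic cells in Fasn, Scd1 and Elovl6, and lower in Elovl6 but higher in Scd2 against monocytes. Fasn was at 5.85 CPM in macrophages and 27.4 in dendritic cells, 4.69-fold lower (3.53 to 6.23), and at 6.69 in monocytes. Elovl6 was 1.75-fold lower than in dendritic cells and 2.11-fold lower than in monocytes. Scd2 was 2.10-fold higher than in monocytes (86.1 against 41.0 CPM), but its log2 ratio was -0.0406 under the stricter cell filter. Scd1 was scarce, with 26 counts in macrophages and 26 in the smaller dendritic class, which is 1.63 and 6.30 CPM, or 3.86-fold lower in macrophages (2.15 to 6.91), and it had 0 counts in monocytes. Acly and Acaca stayed within 1.5-fold in both comparisons.

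Among the 20 myeloid clusters with at least 50 cells, the order of Abca1 ran from 20.6 CPM (11.5 to 34.0) in cluster 18, migratory dendritic cells, to 646.6 (619.6 to 674.5) in cluster 7. Clusters 7 and 0 were both Arg1 macrophages by their markers. Cluster 0 stood at 446.3 CPM, cluster 4, the lining-type macrophages, at 400 (378 to 423) and cluster 13, led by Cd163 and Selenop, at 373 (329 to 422). The last 2 intervals overlap. Nr1h3 was also highest in cluster 7, at 125.1 CPM (113.4 to 137.7), followed by cluster 6 at 94.1 and cluster 11, interferon-responding cells, at 78.9. It was the only member past 1.5-fold between clusters 7 and 0, 1.74-fold higher in cluster 7 (1.5 to 2.03), where 10.2% of all genes were that much higher and 6.03% lower. Abca1 and Nr1h3 were among the 10 leading genes of cluster 7, although no member was used to cluster.

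Osteoclasts, the bone-resorbing cells of the myeloid line (505 cells, clusters 9 and 17), were far below macrophages in Nr1h3, Abca1, Scd2 and Soat1. Nr1h3 was at 5.70 CPM, 12.4-fold lower (9.84 to 15.8), Abca1 at 42.9 CPM, 10.3-fold lower (9.46 to 11.2), Scd2 at 9.55 CPM, 9.01-fold lower (7.52 to 10.9), and Soat1 4.07-fold lower. Npc2 was at 1876 CPM against 1306 in macrophages, a ratio of 1.44. Of 35 members measured 3 were higher and 11 lower, while 24.3% and 30.2% of all genes were, so the lower members were near the share of all genes. After thinning to 2000 UMIs per cell, the efflux, transport and storage genes had a mean of 4.09 UMIs in osteoclasts and 4.35 in macrophages. Osteoclasts had a median of 24605 UMIs per cell and macrophages 5432.5.

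The highest levels of the synthesis genes were spread over several clusters, dendritic and other. Pmvk was at 134.7 CPM (122.8 to 147.3) in cluster 3, with 70.1 in cluster 18 as the next and 22.0 as the lowest. Cyp51 was at 87.1 CPM (65.0 to 114) in cluster 12, the smaller conventional dendritic cluster, and at 39.7 in cluster 3. Idi1 was at 81.1 CPM (61.7 to 104.6) in cluster 18, against 30.1 in cluster 12 as the next. Srebf2 had its 3 highest levels in clusters 12, 3 and 18, at 145.7, 124.7 and 118 CPM, whose intervals overlap. Sqle, Msmo1, Sc5d and Dhcr7 were highest in cluster 4, the lining-type macrophages, at 25.2, 63.0, 21.2 and 20.6 CPM, with the next cluster inside the interval of each, and Dhcr7 was lowest in cluster 18, on 2 counts. Fdps was highest in the neutrophil cluster 8, at 80.9 CPM (65.3 to 99.1), and Fasn in cluster 2, which matched no marker list, at 32.3 CPM (26.5 to 39.0) beside 27.5 in cluster 3. Scd2 was highest in cluster 10, 58 cells led by Col1a1 and Dcn, at 175.9 CPM, and next in cluster 7 at 124.2.

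**Figure D4:**
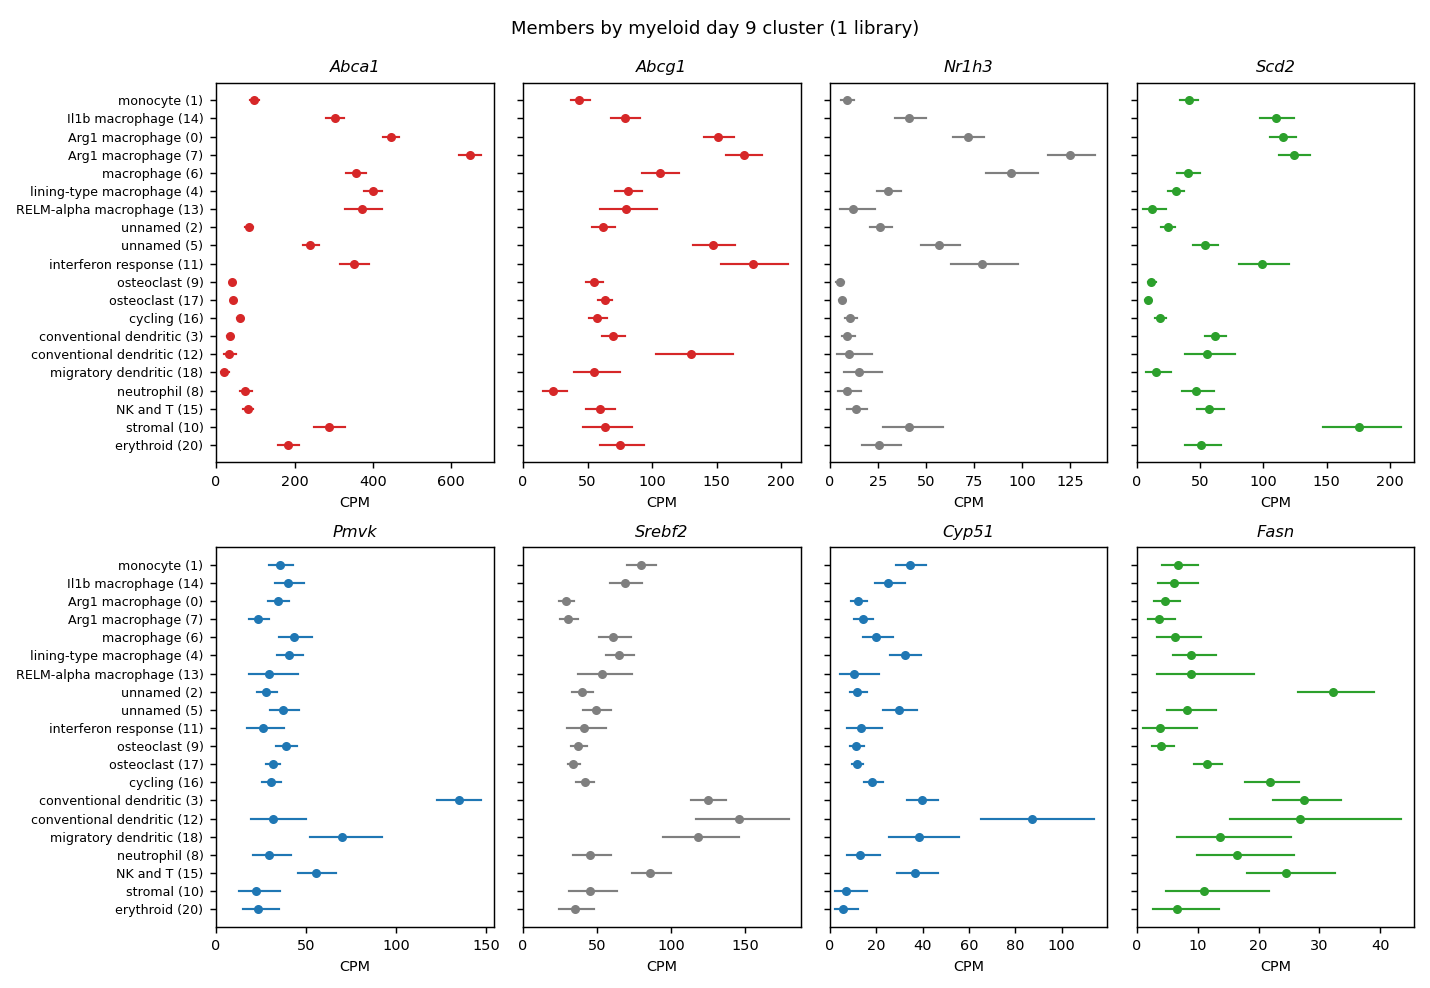
CPM of Abca1, Abcg1, Nr1h3, Scd2, Pmvk, Srebf2, Cyp51 and Fasn in the 20 myeloid clusters with at least 50 cells at day 9, with 95% Poisson intervals. Abca1 is highest in cluster 7 and lowest in cluster 18, and Pmvk is highest in cluster 3.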

How the data were processed

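Gene-by-cell count matrices were used as the authors deposited them, with UMI counts per gene and cell from Cell Ranger 6.0.1 per the file headers, on the mm10 reference per the labels' protocols; Seurat 4.3.0 is named in the submitters' processing notes with no role. The members and lists were chosen with earlier results of these data known. Cells with at least 500 genes, 1000 UMIs and at most 10% mitochondrial UMIs were kept. Scrublet's automatic threshold marked 1478 day 5 cells but 3 and 1 in the other libraries, so the highest scores were removed in all 3 at 0.8% per 1000 barcodes; for the day 5 library this departs from the plan. Cells were log-normalized to 10000 and clustered with scanpy 1.11.5 (2000 variable genes without the members, 30 components, 15 neighbours, Leiden 1.0; fibroblasts again at 0.5), both stromal libraries together without integration. Clusters were named from marker lists, with score limits of 3.0 (stromal) and 1.5 (myeloid) set after the data were seen.

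Counts were summed per class and library and divided by the class total (CPM). Levels have exact Poisson and ratios exact conditional binomial intervals (95%). Members of at least 50 counts and 1.5-fold apart, in classes of at least 100 cells in each library, are given in full and the others by range. The result of 1 other list of pathway genes is not reported here. On simulated counts, 50 of 50 fibroblast genes at each true fold had the right direction, and 123 of 13899 unchanged ones passed 1.5-fold, as did 140 of 10684 in tenocytes and 243 of 9580 in osteoblasts. These counts held Poisson error only, so they say nothing of variation between libraries. True folds were set only in genes well above the 50-count minimum, so the directions do not cover genes near it. Alternatives covered scaling (edgeR 4.0.16 TMM, DESeq2 1.42.0 size factors), cell filters, doublets, clustering, thinning and weighting.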

Additional observations from a re-analysis of the deposited data

Results flagged for a closer look

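Fdps and Mvd were flagged because their ratio of day 5 to day 0 was past 1.5-fold in opposite directions in different fibroblast sub-clusters. A flag also needed at least 100 cells in each library and intervals that exclude 1. The difference between the sub-clusters was not tested. Fdps was 1.76 (1.17 to 2.72, from 31 and 104 counts) in sub-cluster 7, led by C2 and F3, and 0.390 (0.310 to 0.490, from 193 and 128 counts) in sub-cluster 4, led by Penk and Emx2. Mvd was 2.52 (1.5 to 4.43, from 20 and 58 counts) in sub-cluster 0, led by Dkk2 and Tnmd, and 0.376 (0.212 to 0.658, from 32 and 24 counts) in sub-cluster 5, led by Tmem158 and Hand2os1. Lss, Dhcr7, Acaca, Fasn and Elovl6 also had ratios past 1.5-fold both ways, but without meeting these conditions. Fasn and Elovl6 had ratios of 2.27 and 4.12 in sub-cluster 8, which held 70 cells at day 0. In sub-cluster 10 their ratios were 0.581 and 0.541.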

How the results depend on the processing

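Each member past 1.5-fold was recomputed under the alternatives, 765 values in all: 671 stayed within the counting interval, 716 stayed past 1.5-fold and 49 did not, and 2 changed sign. These were Fdft1 in osteoblasts, with a log2 ratio of 0.12 after thinning to 2000 UMIs, and Scd2 in macrophages against monocytes, with -0.0406 under the stricter cell filter. Insig1 in the 3 stromal classes, and Abca1 and Nr1h3 in fibroblasts and tenocytes, stayed past 1.5-fold under every alternative run. Counts of members past 1.5-fold moved as follows; the cause was not tested. Without the Saa3-led sub-cluster, fibroblasts had 11 members in place of 7 and 5 sterol synthesis genes in place of 2. The latter count was 5 after thinning and 6 with the 10 sub-clusters weighted equally. After thinning osteoblasts had 6 members in place of 12 and 3 sterol synthesis genes in place of 9. The 50-count minimum was applied again to thinned counts and to each new set of cells, which can lower such counts. Without regard to that minimum, 57 of 65 member ratios over all comparisons stayed past 1.5-fold after thinning. Under the looser cell filter tenocytes had 9 members in place of 14 and 5 sterol synthesis genes in place of 8. The class was then 458 and 691 cells of the cluster led by Coch and Fmod. Settings on sub-clusters 0, 4, 6, 8 and 12, clusters 6 and 9, the automatic doublet threshold and equal tenocyte weights were chosen after the data were seen. No paired analysis was possible because each group is 1 library. Genes under 50 counts in a class were not measurable at this depth.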

Other observations

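The blood endothelial class (83 cells on day 0, 53 on day 5) was too small to compare. Its 18 sterol synthesis genes summed to 212.7 CPM at day 0 and 422.4 at day 5. Over the same days the fibroblast list went from 259.8 to 3193 CPM and the lymphatic endothelial list from 98.7 to 1135 in this class. The cycling list stood at 0 CPM on day 0 and 502.8 on day 5 in these cells, and the erythroid list at 13.7 and 534.3 CPM; the part of any of these lists was not tested.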
